A study of Mus musculus with 30 samples.

Results

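Oleic acid was compared with physiological serum in peripheral blood mononuclear cells (PBMC) taken 1 h after the injection, on 6 of the 30 arrays of the series. These 6 are all the arrays that the labels place at 1 h, 3 after oleic acid (OA) and 3 after serum, and the other 24 belong to later times. All animals were female C57BL/6 mice aged 6 weeks, anesthetized with xylazine and ketamine. Each received 200 µl into the tail vein, of physiological serum or of OA at 1.2 µl/g body weight, with no untreated group at this time. Blood of 200 to 900 µl per mouse was drawn at death and its cells were separated on Ficoll. The series counts 30 mice, so each array was taken as 1 mouse, and p values measure the spread between these samples.

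Oleic acid is a common unsaturated fatty acid that is injected into a vein to injure the lung in animal models of acute respiratory distress. Blood leukocytes can answer such an injury at the level of transcripts within the first hour. Immediate early genes are copied within minutes because their transcription factors already wait in the cell, whereas cell types can enter or leave the blood or the Ficoll layer without any gene being switched on. In these bulk samples fewer cells of a type and less RNA per cell cannot be told apart. Levels are log2 of the processed signal minus each array's 75th percentile, and a difference is the OA mean minus the serum mean in log2 units. Each standard error (SE) comes from a limma fit over all 12 groups of the series, and groups are called separate where all 3 arrays of one lie above all 3 of the other.

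The immediate early genes are the members that respond soonest to a stimulus, so the bases before the start are shown for 5 of them whose arrays are described in detail. Each stretch holds the 160 bases before the start in RefSeq's GRCm38.p6 table, read 5′ to 3′ in the direction of the gene. Capitals mark a CRE core (TGACG on either strand) in Fos, Nr4a1 and Atf3, the full CRE (TGACGTCA) in Dusp1 and a CArG box, the serum response factor motif, in Zfp36. Fos lies on the plus strand at chr12:85473730-85473889, Dusp1 on the minus strand at chr17:26508473-26508632 and Nr4a1 on the plus strand at chr15:101266686-101266845. Zfp36 lies on the minus strand at chr7:28379229-28379388 and Atf3 on the minus strand at chr1:191183334-191183493.
Fos: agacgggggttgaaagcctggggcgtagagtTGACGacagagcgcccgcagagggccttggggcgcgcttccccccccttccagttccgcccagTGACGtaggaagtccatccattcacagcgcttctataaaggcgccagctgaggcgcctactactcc
Dusp1: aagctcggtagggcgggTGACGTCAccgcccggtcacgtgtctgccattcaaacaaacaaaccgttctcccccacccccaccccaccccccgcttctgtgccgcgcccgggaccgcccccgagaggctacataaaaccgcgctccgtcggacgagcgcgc
Nr4a1: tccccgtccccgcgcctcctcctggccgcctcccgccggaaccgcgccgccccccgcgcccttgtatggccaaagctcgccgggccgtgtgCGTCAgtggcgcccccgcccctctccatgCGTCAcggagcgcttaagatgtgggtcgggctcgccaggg
Zfp36: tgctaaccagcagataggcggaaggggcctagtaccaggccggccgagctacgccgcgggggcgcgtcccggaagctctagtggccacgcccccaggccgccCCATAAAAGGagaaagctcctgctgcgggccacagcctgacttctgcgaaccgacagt
Atf3: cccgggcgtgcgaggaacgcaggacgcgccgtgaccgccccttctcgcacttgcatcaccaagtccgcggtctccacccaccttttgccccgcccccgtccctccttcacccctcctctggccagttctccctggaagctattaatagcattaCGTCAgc

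CRE motifs bind the factor CREB, which is phosphorylated when cyclic AMP or calcium rises. Windows of 300 bases, 250 before and 50 after the start, were read for 18 of the 21 measured immediate early genes. Egr1, Ier2 and Myc were not read. A CRE core on either strand was present in 11 of the 18, and in 20.8% of all 32851 windows in the table. The full CRE, which contains the core on both strands, was present in 2 of 18 (Dusp1 and Btg2) and in 1.79% of all windows. The GC box (GGGCGG) was present in 16 of 18 and in 35.7% of all, the CArG box in 1 of 18 and 1.63%, and the AP-1 motif (TGANTCA) in 0 of 18 and 7.81%. These matches describe letters in a window and were not tested.

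The 6 arrays did not sort by treatment. Across genes, which are not independent replicates, serum replicate 3 correlated more closely with OA replicates 2 and 3 (Pearson r 0.974 and 0.978) than with serum replicates 1 and 2 (0.934 and 0.958). OA replicate 1 correlated with serum replicate 2 at 0.967 and with OA replicate 2 at 0.950. The first principal component held 59.3% of the variance and placed serum replicates 1, 2 and 3 at −0.617, −0.35 and 0.256 and OA replicates 1, 2 and 3 at −0.15, 0.569 and 0.292. Serum replicate 3 therefore stood among the OA arrays and against its label, and results are given with and without it. It was singled out by these same values, so results without it are a description and no check. Array signal ran in nearly the same order, with a 75th percentile of 42.5, 52.8 and 74.3 in serum and 55.1, 141 and 142 in OA. Probes for long intergenic RNA, set against the probes detected on every array, stood at −5.26, −5.45 and −6.18 in serum and −5.38, −6.75 and −6.81 in OA, against −6.89 to −3.23 on the other 24 arrays. Serum replicates 1 and 3 and OA replicate 1 shared slide 1, serum replicate 2 was on slide 3, and OA replicates 2 and 3 were on slide 5, which held OA arrays only and was the one slide scanned on scan day 2. OA replicates 2 and 3 thus differed from every serum array in slide and scan day, while the other 4 arrays were scanned on day 1. The part of signal and intergenic signal in the results was not tested, and values within slide 1 (OA replicate 1 against serum replicates 1 and 3) have no replicate check.

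**Figure D1:**
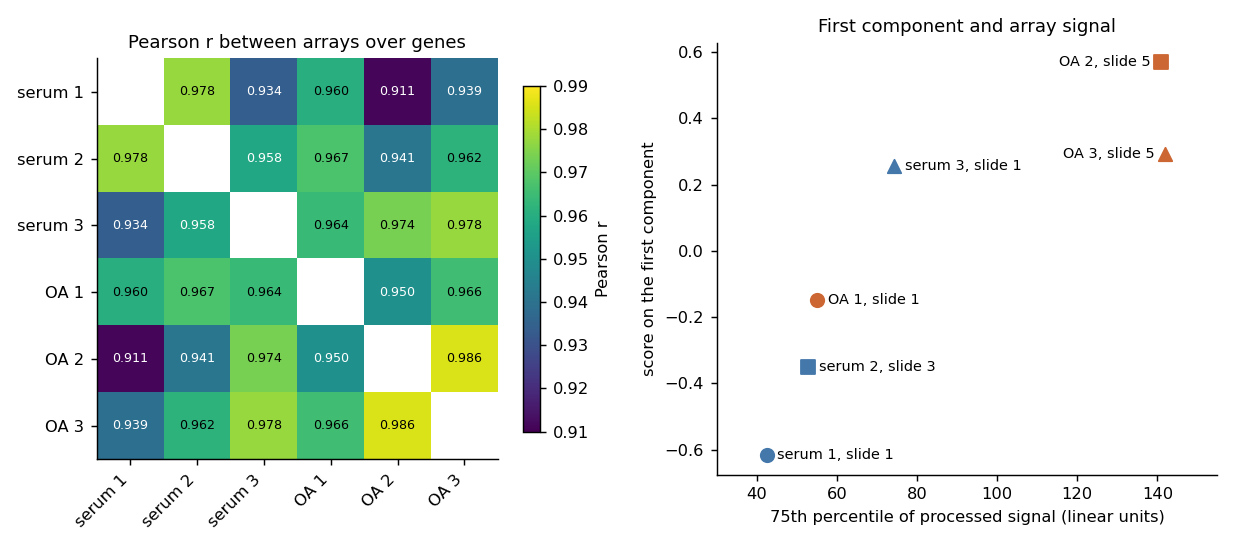
Left, Pearson correlation of log2 levels between each pair of the 6 arrays at 1 h, with colour and printed value giving r. Right, score on the first principal component (vertical) against the array's 75th percentile of processed signal in linear units (horizontal), blue for serum and orange for OA. Serum 3 sits at 0.256, above OA 1 at −0.15 and beside OA 3 at 0.292.

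No gene passed the threshold at 1 h. Of 17335 genes tested, 0% (0 genes) had an adjusted p under 0.05 in limma, and the smallest was 0.825. At an unadjusted p under 0.05 there were 903 genes, where 5% of those tested would be 867. Means were higher after OA for 9861 genes and lower for 7474, and the median difference over all genes was 0.08. With the median of always-detected probes as the scale that median was −0.05, so the balance of higher and lower means turned with the scaling (45.8% of means above 0, against 56.9%). All 3 OA arrays lay above all 3 serum arrays for 3.83% of genes (662 of 17294) and below them for 6.92% (1197). The lower genes were often dim. Among genes not well above background on all 6 arrays 14.4% lay below and 2.37% above, whereas among the 13702 genes well above background on all 6 the shares were 4.92% and 4.2%. Without serum replicate 3 the share of genes with separate groups was 47.6%, and without OA replicate 1 it was 40.9%, while without any 1 of the other arrays it was 13.6% to 15.2%. With 2 arrays against 3, groups are separate more often by construction, so these shares compare with each other and not with the 10.7% of genes separate over all 6 arrays. Even then 0 genes passed, with a smallest adjusted p of 0.0774 without serum replicate 3 (limma, with 2306 genes under an unadjusted p of 0.05).

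Of the named genes with separate groups, 8 of the 10 with the smallest p values stood lower after OA, and most of them were dim. Ggt1, an enzyme that breaks down glutathione outside the cell, was bright enough to be well above background on all 6 arrays. Its probe lies on chromosome 10 between 75048435 and 75048670 (mm9), and it stood at −0.48, −0.59 and −0.40 in serum and at −1.57, −1.42 and −1.47 in OA. The groups of Ggt1, which was picked for separate groups, were apart by more than their spread. The difference was −0.996 (SE 0.25, limma adjusted p = 0.825), and on slide 1 alone it was −1.13. With normexp correction Ggt1 differed by −0.50 and in the deposited value table by −0.48. Rep15, an effector of the vesicle GTPase Rab15, stood at −0.29, −0.71 and −1.71 in serum and −3.00, −3.57 and −2.55 in OA (difference −2.14, SE 0.49). Its OA arrays were all lower, but only 1 of them was well above background, and with normexp correction the difference was −0.79. Anks1b, a scaffold protein known from synapses, was not well above background on any OA array. By the processed signal it was at least 2.31-fold lower there. That bound did not hold on other scales, where Anks1b differed by −0.77 with normexp correction and by −0.61 in the deposited value table. Slc37a2, a sugar phosphate transporter of macrophages (1.35, SE 0.40), and 2610507I01Rik (1.25, SE 0.39) were the other 2 of these 10 and stood higher after OA. Slc37a2 was well above background on 1 serum and 2 OA arrays, and by normexp correction it differed by 0.10. The remaining 5 were Spata32 (−1.37), Tmem253 (−1.81), 4930471M09Rik (−1.26), Olfr1372-ps1 (−1.76) and Cep162, whose 2 probes differed (−1.28 and 0.17). All 10 had an adjusted p of 0.825 in limma.

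Immediate early genes had higher means after OA in 19 of 21 measured members, with a median difference of 0.49 against 0.08 over all genes, but 0 passed and only Jund kept its groups apart, against 3.83% of all genes with higher OA arrays. Fos, a subunit of the AP-1 transcription factor, stood at 1.23, 1.92 and 4.47 in serum replicates 1, 2 and 3 and at 3.01, 5.03 and 4.03 in OA replicates 1, 2 and 3. Serum replicate 3 was higher than 2 of the 3 OA arrays, and the low values were those of serum replicates 1 and 2. Fos differed by 1.48 (SE 0.64, limma adjusted p = 0.825), by 2.45 without serum replicate 3 and by 0.16 on slide 1. Egr1, a zinc finger factor induced by growth and stress signals, stood at −0.78, −0.33 and 2.32 in serum and 0.23, 3.87 and 2.17 in OA (1.69, SE 0.87). OA replicate 2 was the highest, OA replicate 1 lay between serum replicates 2 and 3, and on slide 1 Egr1 differed by −0.54.

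Genes that end the response stood in much the same order of arrays. Dusp1, a phosphatase that switches off MAP kinases and whose full CRE is shown with the sequences, stood at 2.35, 3.19 and 4.77 in serum and 3.79, 5.08 and 4.36 in OA (0.97, SE 0.58). Zfp36, which marks cytokine messages for decay, stood at −1.94, −1.20 and 0.68 in serum and −0.10, 1.12 and 0.35 in OA (1.27, SE 0.62). In both, serum replicate 3 lay within the range of OA. Atf3, a stress-induced factor of the CREB family, stood at −1.31, −0.52 and 0.63 in serum and −0.07, 1.03 and 0.74 in OA (0.96, SE 0.44). Its groups overlapped only through serum replicate 3 and OA replicate 1. Nr4a1, an orphan nuclear receptor, stood at 3.05, 3.89 and 4.99 in serum and 4.2, 5.19 and 5.00 in OA (0.82, SE 0.51), again with serum replicate 3 at the level of OA.

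Of the remaining members, Fosb differed by 0.81, Fosl2 by 0.93, Ier2 by 0.60, Btg2, an inhibitor of proliferation, by 0.54, and Klf4 and Klf6 by 0.41 and 0.38. Jund, a subunit of AP-1 that many cells make all the time, was the sole member with separate groups, at 8.18, 8.02 and 7.94 in serum and 8.27, 8.32 and 8.28 in OA. Jund differed by 0.24 (SE 0.30), by 0.02 with quantile normalization, and no immediate early gene had higher separate groups under that scale or under the median of always-detected probes. Junb (0.04) and Jun (−0.06), other AP-1 subunits, turned sign with the scaling (Junb −0.09 with always-detected probes, Jun 0.31 with normexp), and Myc, a growth factor response gene, differed by −0.30. Serum replicate 3 was the highest serum array in 20 of 21 members, as it was for 53% of all genes, and OA replicate 1 the lowest OA array in 19 of 21, as for 54.5%. Without serum replicate 3 the groups were apart in 14 of 21 members, all with OA higher, at a median of 0.85, where 47.6% of all genes were apart in either direction and the median of all genes was 0.14. On slide 1 the median of the immediate early genes was −0.06. Egr2, Egr3, Fosl1, Nr4a3 and Maff were well above background on 2 arrays at most and were not measured.

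**Figure D2:**
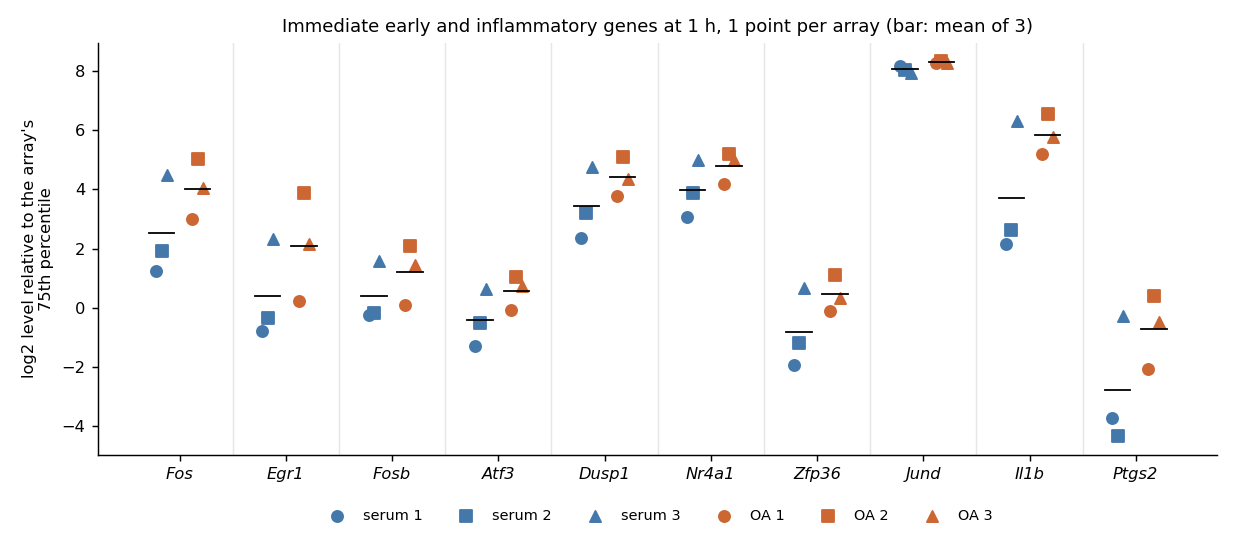
Log2 level relative to the array's 75th percentile (vertical) of 8 immediate early and 2 inflammatory genes (horizontal), with 1 point per array, blue for serum, orange for OA, symbol by replicate, and a bar at the mean of 3. The blue triangle of serum 3 lies among the orange points in Fos, Egr1, Dusp1, Nr4a1, Zfp36 and Il1b, where serum 3 stood at 6.32 against 5.20 to 6.55 in OA, and Jund shows separate groups that are 0.24 apart.

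Inflammatory genes and NF-kB targets lay on both sides of 0, with 9 of 15 measured members above 0 and a median of 0.19 against 0.08 over all genes. A pair of values were large in size and in error. Il1b, the fever-inducing cytokine of myeloid cells, stood at 2.14, 2.62 and 6.32 in serum and 5.20, 6.55 and 5.76 in OA (2.15, SE 0.91, limma adjusted p = 0.825), and on slide 1 it differed by 0.97. Ptgs2, the inducible prostaglandin synthase, stood at −3.73, −4.33 and −0.28 in serum and −2.05, 0.38 and −0.47 in OA (2.07, SE 0.95). It was well above background on 1 serum array and 2 OA arrays, so this value lies partly in the dim range, and with normexp correction it was 0.40. In both genes serum replicate 3 was at the level of OA.

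Secreted cytokines other than Il1b gave no common direction. Tnf, the early cytokine of macrophages, was the 1 member with separate groups, and its OA arrays were the lower ones, at −0.73, −0.30 and −0.71 against −0.23, −0.15 and −0.12 in serum (−0.41, SE 0.38), where 6.92% of all genes had OA arrays below serum. The chemokine gene Ccl3 differed by 0.91 (SE 0.51), Cxcl2, which draws neutrophils, by 0.28 (SE 0.85; −0.04 with normexp), and Ccl2, which draws monocytes, by −0.42 (SE 0.46). Ccl2 was well above background on 2 arrays of each group. Of the brakes on NF-kB, Tnfaip3 differed by 0.58 (SE 0.46) and Nfkbia by 0.20 (−0.03 in the deposited table). Il6, Cxcl1 and Il10 were well above background on at most 1 of the 6 arrays and were not measured. Without serum replicate 3 the median of the group was 0.33 and on slide 1 it was −0.19.

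Glucocorticoid-responsive genes, which follow the stress hormone corticosterone in mice, had a median of 0.58 with 10 of 14 measured members above 0 and 0 with separate groups. Cebpd, an acute-phase transcription factor, stood at 1.40, 2.14 and 4.09 in serum and 3.46, 3.98 and 3.62 in OA (1.14, SE 0.53). Serum replicate 3 was the highest of all 6. In a pair of classic targets that array did not exceed the OA mean. Tsc22d3, which encodes the glucocorticoid-induced leucine zipper, stood at 5.44, 5.95 and 5.64 in serum and 5.89, 6.72 and 6.42 in OA (0.67, SE 0.44), and Fkbp5, a chaperone that dampens the receptor, at 0.54, 1.06 and 1.00 against 0.66, 1.61 and 1.67 (0.45, SE 0.36). In both, OA replicates 2 and 3 lay above all serum arrays and OA replicate 1 did not. The metallothioneins Mt1 (−0.23) and Mt2 (−0.20) and the mTOR inhibitor Ddit4 (−0.37) had lower means, and Mt1 and Ddit4 turned to 0.04 and 0.03 with normexp. On slide 1 the median of the group was 0.05.

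Clock genes were measured in 8 members, 6 of them above 0, with a median of 0.49 that was 0.03 on slide 1. Per1, a clock repressor that glucocorticoids also induce, stood at 2.99, 3.84 and 4.14 in serum and 4.00, 5.12 and 4.67 in OA (0.94, SE 0.45), so its groups overlapped only where serum replicate 3 exceeded OA replicate 1. Cry2, its partner, differed by 0.85 (SE 0.37), and Dbp, an output gene of the clock, by −0.04 (SE 0.37; 0.22 with normexp). These are the brightest probes, and the other kept probe differed by 0.03 for Cry2 and by 0.21 for Dbp. No source used here gives the clock time of the injections.

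Fatty acids are ligands of PPAR receptors, and genes of fatty acid handling lay on both sides of 0. Of 19 measured members 10 were above 0, at a median of 0.14 against 0.08 over all genes. Plin2, the coat protein of lipid droplets, stood at 0.46, 1.73 and 2.21 in serum and 1.19, 2.03 and 1.68 in OA (0.17, SE 0.44, 95% confidence interval −0.75 to 1.09). Cpt1a, which carries fatty acids toward mitochondria, differed by −0.10 (SE 0.41, interval −0.94 to 0.75), and Angptl4, an inhibitor of lipoprotein lipase, by −0.27 (SE 0.32, interval −0.94 to 0.40). For these 3 genes the groups overlapped and the intervals include 0 and changes in either direction. Pdk4 was well above background on none of the 6 arrays. Hadha, an enzyme of mitochondrial beta oxidation, was the member with separate groups, at 1.42, 1.44 and 1.37 in serum and 1.09, 0.78 and 0.77 in OA (−0.53, SE 0.34). The fatty acid carriers Fabp4 (1.11, SE 0.66) and Fabp5 (0.95, SE 0.49) had the largest positive values, with serum replicate 3 as high as OA in both.

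Hypoxia, oxidative stress and protein folding genes had mostly higher means, with few separate groups. Of 17 hypoxia and glycolysis genes 14 had higher OA means (median 0.33), of 11 NRF2 targets 9 (median 0.34), of 13 unfolded protein response genes 11 (median 0.46) and of 9 heat shock genes 6 (median 0.37). On slide 1 these medians were 0.10, 0.26, 0.08 and −0.05. Over all genes and all 6 arrays 56.9% of means were higher after OA, the median was 0.08 and 10.7% had separate groups. Vegfa, a growth factor of vessels, stood at −3.57, −3.34 and −1.53 in serum and −1.81, −1.66 and −1.59 in OA (1.13, SE 0.57), with serum replicate 3 above OA. Vegfa was well above background on 1 serum and 2 OA arrays and differed by −0.13 with normexp. P4ha1, a collagen-modifying enzyme induced by hypoxia, had separate groups with OA lower (−0.91, SE 0.32), was also dim, and differed by −0.19 in the deposited value table. Nqo1, a quinone reductase, differed by 1.69 (SE 0.81) but was well above background on 1 serum array and by normexp correction differed by 0.04.

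Hspa5, the chaperone BiP of the endoplasmic reticulum, stood at 3.67, 4.42 and 4.82 in serum and 4.42, 5.25 and 5.14 in OA (0.63, SE 0.37). Asns, asparagine synthetase, had separate groups at −0.33, −0.69 and −0.67 in serum and −0.17, 0.02 and −0.07 in OA (0.49, SE 0.71). OA replicates 2 and 3 exceeded every serum array in both. Hsf1, the factor that drives heat shock genes, also had separate groups, at 1.04, 1.14 and 1.13 in serum and 1.32, 1.77 and 1.66 in OA (0.48, SE 0.29). Hspa1a was well above background on none of the 6 arrays.

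Interferon-stimulated genes lay on both sides of 0, with 11 of 18 above it and a median of 0.05 that was −0.08 with always-detected probes or quantile normalization. The antiviral genes Ifit1, Isg15 and Oasl2 differed by 0.42 (SE 0.47), 0.33 (SE 0.76) and 0.87 (SE 0.62). In Oasl2 the OA arrays at 4.2, 4.61 and 4.74 overlapped with serum replicate 3 at 4.31.

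Neutrophil genes had the largest list median at 1 h, 0.72 over 18 measured members with 16 above 0, and none of those 16 had separate groups. Slpi, a protease inhibitor of granulocytes, stood at 4.28, 4.67 and 7.44 in serum and 6.78, 7.07 and 6.67 in OA (1.38, SE 0.72). S100a8, a subunit of calprotectin, stood at 7.04, 7.07 and 9.51 in serum and 8.85, 8.71 and 8.45 in OA (0.80, SE 0.70). Serum replicate 3 exceeded every OA array in both. It stood above the OA mean in 18 of 18 members and was the highest of all 6 arrays in 13, against 60.1% and 19.8% of all genes. Without it the groups were apart in 16 of 18 members, 15 of them higher after OA, at a median of 1.54, where 47.6% of all genes were apart and their median was 0.14. Of these neutrophil genes 12 then had an unadjusted p under 0.05 in limma, beside 2306 of all 17335 genes, and 0 passed. Serum replicate 3 was singled out by its values, so the counts without it are no check. On slide 1 the median was 0.57. Mmp9, a gelatinase of granules, differed by 1.05 and Cxcr2, the receptor that draws neutrophils, by 1.03. S100a9, the partner of S100a8, differed by 0.58 (SE 0.59) and the collagenase gene Mmp8 by 0.64 (SE 0.50).

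Csf3r, the G-CSF receptor, was a neutrophil gene with lower OA levels. Csf3r stood at 8.24, 8.08 and 7.65 in serum and 7.42, 7.01 and 7.13 in OA, with separate groups (−0.80, SE 0.33, limma adjusted p = 0.825). Csf3r differed by −0.97 without serum replicate 3 and by −0.53 on slide 1. The array has 1 kept probe for Csf3r, on chromosome 4 between 125721478 and 125721537 (mm9). Itgam, the integrin subunit CD11b, likewise stood lower by its brightest probe (−1.30, SE 0.59), but its 2 other kept probes gave −0.59 and 0.25. Of 8 measured granule genes of immature neutrophils 3 were above 0, at a median of −0.15. Camp, Ltf and Ngp, which encode granule proteins, differed by −0.47 (SE 0.63), −0.68 (SE 0.63) and −0.79 (SE 0.65), and by 0.02, −0.16 and −0.46 without OA replicate 1. Cebpe, a transcription factor of granulocyte maturation, had the highest value of these 8 genes (0.99, SE 0.64).

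Receptors by which leukocytes adhere and follow attractants gave 11 of 16 above 0 and a median of 0.21, led by 3 receptors that neutrophils carry, the formyl peptide receptors Fpr1 (1.06, SE 0.59) and Fpr2 (0.89, SE 0.52) and the chemokine receptor Cxcr2 (1.03, SE 0.73). Among coagulation genes 7 of 8 were above 0 at a median of 0.56. Plaur, the urokinase receptor, had separate groups, at 2.30, 2.65 and 3.11 in serum and 3.16, 3.52 and 3.35 in OA (0.66, SE 0.33). F5, coagulation factor V, stood at 4.95 in OA replicate 2, the array that also had the highest platelet genes, and at 3.06 to 3.32 in the other arrays.

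Monocyte genes lay on both sides of 0, with 8 of 13 above 0 and a median of 0.14. Csf1r, through which M-CSF acts on monocytes, stood at 4.37, 5.62 and 5.82 in serum and 5.52, 5.66 and 5.46 in OA (0.28, SE 0.41). By this probe, its brightest, only serum replicate 1 was low. The other kept probes of Csf1r differed by 0.05 and −0.28, and in the latter serum replicate 1 was the highest array. Lyz2, lysozyme, differed by 0.27 (SE 0.60), and genes of patrolling monocytes lay on both sides of 0, with Ear2 at 0.82 (SE 0.59), Cd300e at 1.06 (SE 0.59), Ace at −0.38 (SE 0.40) and Treml4 at −0.28 (SE 0.45). Of dendritic cell genes 7 of 11 were above 0 (median 0.08, and −0.06 with always-detected probes), and Ccr9, a homing receptor of plasmacytoid cells, had separate groups with lower OA levels (−0.37, SE 0.33).

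B cell genes had higher means after OA in 14 of 15 members, at a median of 0.55 against 0.08 over all genes. Groups were separate in 6 of 15, all with OA higher, where 3.83% of all genes were, and in 5 to 9 of 15 under the 4 other value scales. None of the 15 passed in limma. Ebf1, a factor that fixes B cell fate, stood at 2.73, 2.71 and 2.99 in serum and 3.16, 3.42 and 3.50 in OA (0.55, SE 0.35, limma adjusted p = 0.825), and Cr2, the complement receptor CD21, at 2.58, 2.98 and 3.39 in serum and 3.41, 3.59 and 3.42 in OA (0.49, SE 0.30). Blk, a kinase of B cell receptor signalling, stood at 0.25, −0.40 and 0.38 in serum and 0.66, 0.70 and 0.76 in OA (0.62, SE 0.57). The inhibitory receptor gene Cd22 differed by 0.38 (SE 0.35) with separate groups. The steps between groups were small in these genes, and serum replicate 3 passed the OA mean in 2 of 15 members, against 18 of 18 neutrophil genes.

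Cd79a, a signalling chain of the B cell receptor, is the least certain of the 6. The brighter probe under that name stood at 5.88, 5.59 and 5.87 in serum and 6.34, 6.49 and 6.43 in OA (0.64, SE 0.43), but the file places it on chromosome 12, whereas RefSeq has the gene on chromosome 7. The other probe, on chromosome 7, gave 3.30, 2.70 and 2.80 in serum and 3.31, 2.85 and 2.99 in OA, a difference of 0.11 with overlapping groups. Pax5, a B cell transcription factor, differed by −0.08 (SE 0.28) and Ms4a1, which encodes CD20, by 0.50 (SE 0.42). On slide 1 the median of the B cell genes was 0.24, with slide as a block 0.32 and with array signal as a covariate, an alternative chosen after the data were seen, 0.30.

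T cell genes had lower means after OA in 11 of 15 members (median −0.16) and NK genes in 9 of 14 (median −0.24). The T cell median turned to 0.11 with normexp correction and was −0.29 with always-detected probes. Cd4, the co-receptor of helper T cells, had separate groups at 4.43, 4.45 and 4.17 in serum and 3.89, 4.04 and 3.96 in OA (−0.39, SE 0.26). Bcl11b, a factor that keeps T cell identity, stood at 3.54, 3.26 and 3.28 in serum and 2.67, 2.83 and 2.68 in OA (−0.63, SE 0.37), but its other kept probe differed by −0.10 with overlap. The second Cd4 probe, which was dim, differed by −0.99. Prf1, the pore-forming protein of killer cells, stood at 2.67, 2.90 and 3.16 in serum and 2.06, 2.60 and 2.60 in OA (−0.49, SE 0.32). No other T cell or NK gene had separate groups, and 6.92% of all genes had OA arrays below serum. Cd3e, a chain of the T cell receptor complex (−0.22, SE 0.33; 0.11 with normexp), and Ncr1, the NK receptor NKp46 (−0.35, SE 0.35), overlapped between groups.

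The lowest T cell values came from a single array. OA replicate 1 was the lowest of all 6 arrays in 14 of 15 T cell genes and 9 of 14 NK genes, against 17% of all genes. Without it the medians were −0.03 and 0.06, and on slide 1, where it is the OA array, they were −0.59 and −0.91. Cd4, Bcl11b and Prf1 differed by −0.35, −0.61 and −0.31 without OA replicate 1. Groups that are separate over all 6 arrays stay separate by construction when 1 is left out, so this is no check.

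**Figure D3:**
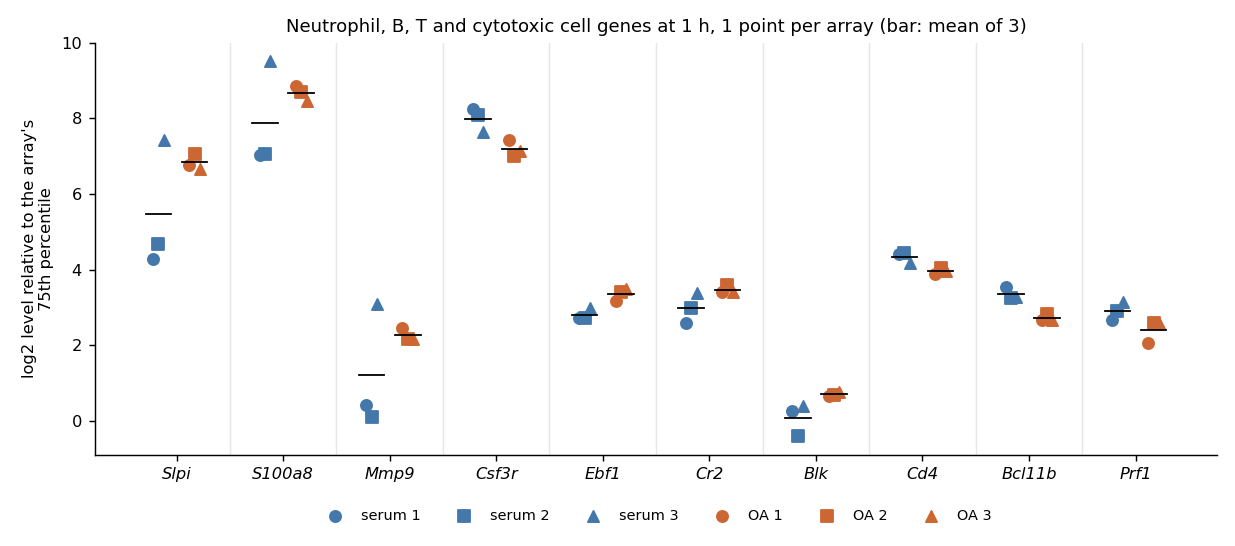
Log2 level relative to the array's 75th percentile (vertical) of neutrophil (Slpi, S100a8, Mmp9, Csf3r), B cell (Ebf1, Cr2, Blk), T cell (Cd4, Bcl11b) and cytotoxic (Prf1) genes, with 1 point per array and a bar at the mean of 3. Serum 3 tops Slpi at 7.44, whereas all OA points lie above all serum points in Ebf1 (3.16 to 3.50 against 2.71 to 2.99) and below them in Csf3r, Cd4, Bcl11b and Prf1.

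Platelet genes stood higher in 13 of 15 members (median 0.39), and that figure rested on OA replicate 2. It was the highest of all 6 arrays in 15 of 15 members, against 31.6% of all genes. Ppbp, a platelet chemokine precursor, stood at 6.67, 6.92 and 7.08 in serum and 7.51, 8.54 and 7.09 in OA (0.83, SE 0.59). Pf4, the other main granule chemokine, stood at 7.95, 8.02 and 8.02 in serum and 8.28, 9.24 and 8.05 in OA (0.53, SE 0.58), and Gp9, part of the von Willebrand factor receptor, at 6.22, 6.18 and 6.02 against 6.32, 7.76 and 6.23 (0.63, SE 0.61). The groups of these 3 genes were separate by a narrow margin, with OA replicate 3 just above the highest serum array. Over all genes 3.83% had OA arrays above serum. With quantile normalization or in the deposited values, 0 of 15 platelet genes had separate groups. Without OA replicate 2 Ppbp differed by 0.41, Pf4 by 0.17 and Gp9 by 0.14, and the median of the group was −0.10.

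Erythroid genes, from red cells and reticulocytes that enter the Ficoll layer, did not run in 1 direction. Groups were separate in 4 of 15, where 10.7% of all genes were. Among them were genes of the red cell membrane. Epb42 stood at 0.91, 0.98 and −0.81 in serum and 2.07, 1.35 and 1.78 in OA (1.37, SE 0.90), and Rhd differed by 1.47 (SE 0.82). Tfrc, the transferrin receptor, also had separate groups (0.57, SE 0.41). The globin genes Hba-a1 and Hbb-bt differed by −0.64 (SE 0.41) and −0.42 (SE 0.37), and Alas2, which starts heme synthesis in erythroid cells, by −0.24 (SE 0.60). With normexp correction Hbb-bt differed by −0.03 and Alas2 by 0.16. Quantile normalization gives the brightest probes of each array nearly the same value by construction and is no check of these genes. Serum replicate 3 was the lowest of 6 arrays in 10 of 15 members, against 10.2% of all genes. The median of 0.40 turned to −0.31 without that array. Epb42 and Rhd then differed by 0.79 and 0.82, a sign that their separate groups fix by construction. Serum replicate 3 thus had both the highest neutrophil and the lowest erythroid genes, and the part of one in the other was not tested.

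**Figure D4:**
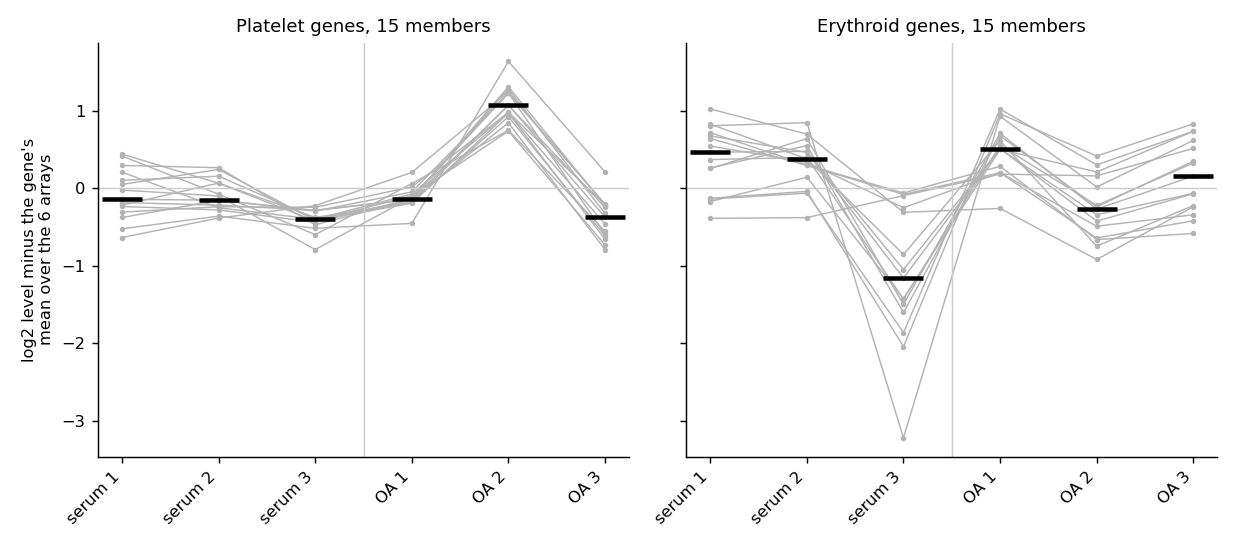
Log2 level of each member minus its mean over the 6 arrays (vertical) by array (horizontal), for 15 platelet genes on the left and 15 erythroid genes on the right, with a grey line per gene and a black bar at the median of the members. OA 2 is the highest array for 15 of 15 platelet genes, and serum 3 is the lowest for 10 of 15 erythroid genes.

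Other cell types were little represented. Of the lung epithelium and endothelium markers 2 of 14 were measured, and Sftpc, the surfactant gene of alveolar cells, was well above background on none of the 6 arrays. Scgb1a1, an airway secretory protein, stood at −1.29, −2.16 and −2.14 in serum and −1.11, −3.34 and −1.68 in OA (−0.18, SE 0.64). Of basophil, eosinophil and mast cell genes 4 of 11 were measured, and Prss34, a basophil protease, had separate groups near background (−0.73, SE 0.55). Of 11 measured cell cycle genes 9 were above 0 (median 0.24), with Ccnb2, a mitotic cyclin, apart at 0.38 (SE 0.44). The labelled PBMC expressed the lymphocyte and monocyte markers of that preparation, with 15 of 15 T cell, 15 of 15 B cell and 12 of 13 monocyte genes well above background on all 6 arrays. So were 18 of 18 neutrophil, 15 of 15 platelet and 14 of 15 erythroid genes.

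**Figure D5:**
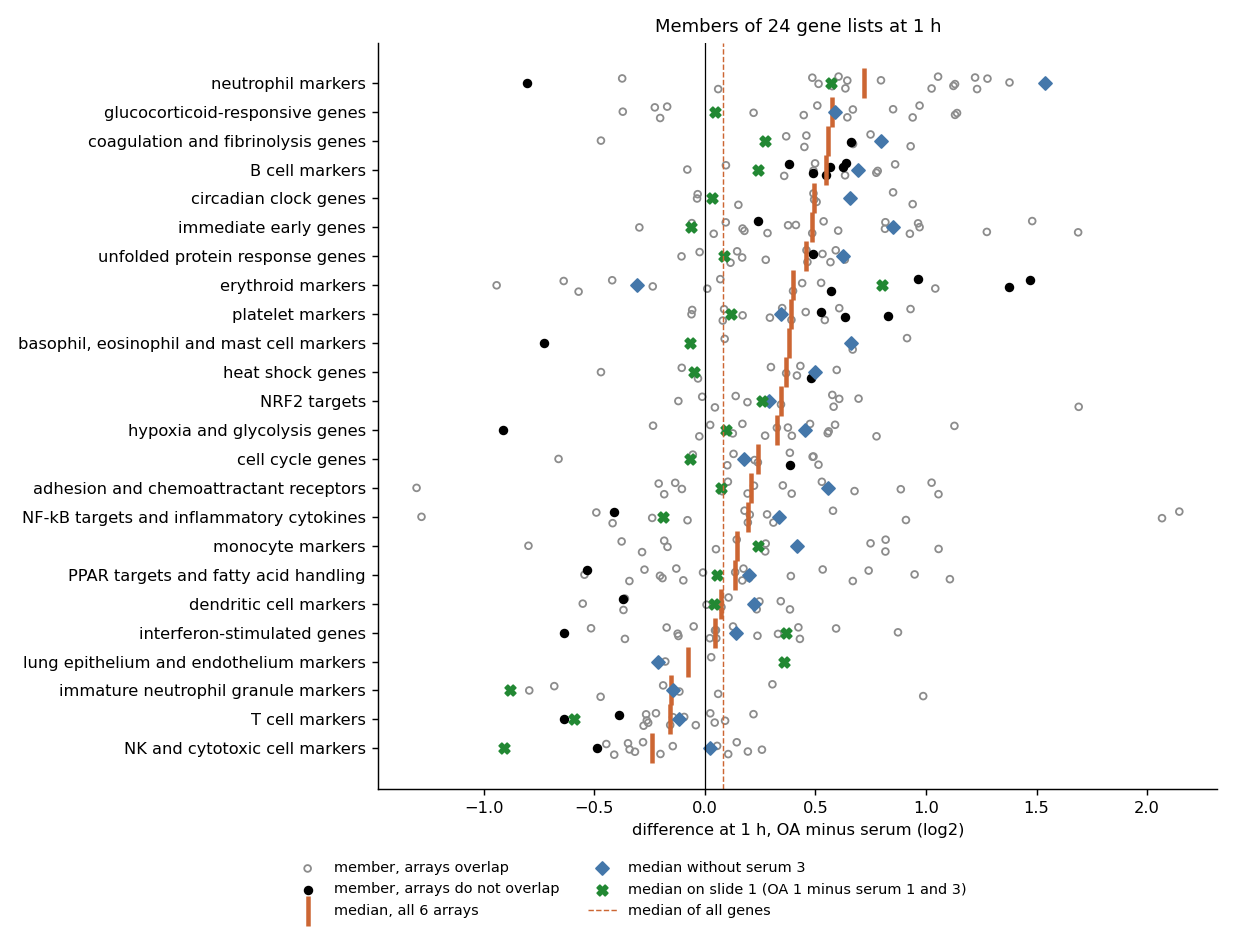
Difference at 1 h, OA minus serum in log2 (horizontal), for the measured members of 24 gene lists (vertical, ordered by median). Grey rings are members whose arrays overlap, black points members whose arrays do not, orange bars list medians, blue diamonds medians without serum 3, green crosses values within slide 1, and the dashed line is the median of all genes at 0.08. Neutrophil genes move from 0.72 to 1.54 without serum 3 and erythroid genes from 0.40 to −0.31, whereas B cell genes stay between 0.24 and 0.69.

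Across the 24 lists 310 entries were measured and 28 had separate groups, 18 with OA higher and 10 with OA lower, and 0 passed over all genes in limma. The share of 9.03% stands beside 10.7% of all genes.

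The effect at 1 h was set against those at 1.5 and 3 h, which have mice of their own. In limma 0% of 17335 genes differed between 1 and 1.5 h (0 genes, smallest adjusted p 0.999, 434 at an unadjusted p under 0.05), and likewise 0% between 1 and 3 h (0 genes, smallest adjusted p 0.721, 267 unadjusted). The smallest p values between 1 and 1.5 h included Ccl2, which differed by −0.42 at 1 h and 1.72 at 1.5 h (difference of effects −2.14, SE 0.65), and Flt1, a receptor for vascular growth factors, at −0.50 and 1.53 (−2.03, SE 0.56). Arl14ep (−2.60, SE 0.63, probes in disagreement at 1 h from −1.18 to 0.12), Gm6225 (−1.64) and Spata32 (−1.62) were the other 3. Between 1 and 3 h they were Asph (−3.11, SE 0.62), Naip6, a sensor of bacterial proteins (−2.43, SE 0.60), Gm4489 (−2.88), Cfb, a complement factor (−3.71, SE 0.98), and Snx21 (−1.64). All 10, picked by p value, had a lower difference at 1 h than at the later time, and 0 passed. Over all genes the difference of effects was above 0 for 40.8% against 1.5 h and for 48.8% against 3 h.

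List medians at the 3 early times, at 1, 1.5 and 3 h, were 0.49, 0.45 and 0.43 for immediate early genes and 0.55, 0.62 and 0.47 for B cell genes. Those of neutrophil genes were 0.72, −0.38 and 0.38, of platelet genes 0.39, 1.89 and 1.09, of erythroid genes 0.40, −0.90 and −0.15 and of monocyte genes 0.14, 0.32 and 0.76. Between 1 and 1.5 h the difference of effects was above 0 for 17 of 18 neutrophil genes (median 1.29) and below 0 for 15 of 15 platelet genes (median −1.46), with 0 of either list passing. Over all genes 40.8% were above 0 and the median was −0.10, so most genes also lay below 0. Atf3 differed by 0.96 (SE 0.44) at 1 h and by 1.89 (SE 0.44) at 1.5 h, with a difference of effects of −0.93 (SE 0.63).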

How the data were processed

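Per the labels, 200 ng of RNA was labelled with Cy3 and hybridised to 1-colour Agilent mouse arrays, with probes placed on mm9 per the file headers. The authors' scanner files hold intensity values, read with Agilent Feature Extraction 10.5.1.1 per the submitters' processing notes, and marks for control spots and for signal well above background, which define the detected probes. The authors also deposited a value table that sits on a log2 scale when set against the scanner signals, with its background correction and centring unstated; it served as an alternative. Here log2 of the processed signal minus each array's 75th percentile over non-control probes was used. Probes that 3 or more of the 6 arrays detected were kept (23042 of 55681), and the brightest kept probe stood for a gene. All 12 groups entered one limma fit (limma 3.58.1, R 4.3.3) with Benjamini-Hochberg adjustment at 0.05, tested on simulated data. The number of arrays limits the precision.

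Replicate numbers were not used as pairs, since deviations of equally numbered arrays from their group means correlated at 0.475, −0.163 and 0.0462. Genes were named by rule: the 10 smallest p values with separate groups, up to 3 members per list with separate groups, a set of classic members of each list, and the 5 smallest p values of each contrast between times. Other list members were added as examples after their values were seen. The comparison and the gene lists were chosen with earlier results of these data known. Alternatives were other scalings, normexp background, the deposited table, other filters, single probes, a slide or replicate block, the 6 arrays alone, trended moderation, each array left out, and the array signal as a covariate. Values of some single genes are not reported here.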

Additional observations from a re-analysis of the deposited data

How the results depend on the processing

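In limma 0 genes passed at 1 h under every alternative that was fitted, with smallest adjusted p values from 0.0774 (without serum replicate 3) to 0.999932. With 1 array left out the share of genes with separate groups was 13.6% to 47.6%; it is higher by construction with 2 arrays against 3 than the 10.7% over all 6, so only the left-out arrays compare with each other. The upper values were those without serum replicate 3 (47.6%) and OA replicate 1 (40.9%), and the cause was not tested. Replicate numbers only name the arrays, and with the replicate block 0 genes passed (smallest adjusted p 0.614 in limma, 1389 at an unadjusted p under 0.05 against 903 without it). With the array signal as a covariate, chosen after seeing the data, there were 0 (0.991 and 811). Scaling moved the median of all genes from 0.08 to −0.05 with always-detected probes, and dropping the filter to −0.26. Of 72 measured genes named by rule, 56 kept their sign throughout. Many were named for separate groups, whose sign cannot turn when an array is left out or on slide 1. The count is therefore partly set by the naming rule, and the share over all genes was not taken. Values within slide 1 have a single OA array and no test, and list medians were not run on single probes. Signal near background limits the dim genes.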

Other observations

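Genes outside the lists with separate groups were looked at after their values were seen. Of the 662 genes with all OA arrays higher, 171 were also separate under the 4 other value scales, and of the 1197 with OA lower, 408. None of them passed over all genes in limma.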
